A study of Mus musculus with 16 samples.

Results

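The genes described here are 10 members of the integrated stress response and of the stress hormones tied to it, *Atf4*, *Atf3*, *Ddit3*, *Trib3*, *Asns*, *Psat1*, *Phgdh*, *Chac1*, *Fgf21* and *Gdf15*. They were chosen by symbol, and all 10 were found among the 56832 genes of the table and passed the filter on low values that left 15128 genes for testing. Liver RNA was sequenced from 16 mice, 4 of each genotype. L-DKO mice carried Gclc f/f and Nrf2 f/f alleles, Gclc L-KO mice Gclc f/f, Nrf2 L-KO mice Nrf2 f/f, and WT mice Gclc wt/wt. Mice of every genotype, WT included, received AAV-TBG-Cre by tail vein, and liver was taken 3 weeks later from animals at least 12 weeks of age at the start. The TBG promoter drives Cre in hepatocytes, so in the mice with floxed alleles the other liver cells kept those genes. Gclc encodes the catalytic subunit of the enzyme that makes the first product of glutathione synthesis, and Nrf2 (gene *Nfe2l2*) is the transcription factor of the antioxidant response. The comparison asks how far the members differed from WT in livers labelled as lacking Gclc, Nrf2 or both in hepatocytes.

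In the integrated stress response, kinases that sense amino acid shortage, unfolded protein, haem shortage or double-stranded RNA phosphorylate the initiation factor eIF2. General translation then slows while the mRNA of *Atf4* is translated more, so ATF4 protein can rise with little change in its mRNA. ATF4 works with other bZIP factors such as ATF3 and CHOP (gene *Ddit3*) on genes of amino acid synthesis and uptake, and liver and other tissues secrete FGF21 and GDF15, hormones that act on metabolism and appetite, under such stress. The values below are mRNA levels and hold no measure of eIF2 phosphorylation or of protein.

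ATF4 and C/EBP proteins bind as pairs to a composite element, and its letters were searched in the RefSeq promoter of each member (GRCm38.p6, 250 bases before to 50 after the annotated start), which was found for all 10 members in 12 windows. The element was spelled TGATGNAA and looked for on both strands. It was present in 5 of 10 members, *Atf3*, *Trib3*, *Asns*, *Chac1* and *Fgf21*, and in 3.97% of the 32851 promoters of the same length. The windows are shown because 3 of these members hold identical letters and differed in how closely they moved together across the libraries. Each is written 5′ to 3′ on the strand of its gene, with the match in capitals. *Atf3* is read from chr1:191183395-191183484 (- strand), *Fgf21* from chr7:45615581-45615670 (- strand), *Chac1* from chr2:119351008-119351097 (+ strand), *Asns* from chr6:7693210-7693273 (- strand) and *Trib3* from chr2:152344028-152344057 (- strand).
Atf3: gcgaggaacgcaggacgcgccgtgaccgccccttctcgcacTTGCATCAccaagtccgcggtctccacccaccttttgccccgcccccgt
Fgf21: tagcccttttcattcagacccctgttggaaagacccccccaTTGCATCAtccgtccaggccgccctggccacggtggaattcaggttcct
Chac1: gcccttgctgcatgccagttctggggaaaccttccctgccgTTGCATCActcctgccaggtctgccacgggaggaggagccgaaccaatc
Asns: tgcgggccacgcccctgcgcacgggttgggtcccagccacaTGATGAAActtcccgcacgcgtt
Trib3: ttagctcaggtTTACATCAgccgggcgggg
*Atf3*, *Fgf21* and *Chac1* held the identical letters on the opposite strand, starting 110, 139 and 193 bases before the start site, while the *Asns* match lay on the gene's own strand 23 bases before it and the *Trib3* match began 15 bases into the annotated transcript. The first bases after the annotated start were found in a GENCODE transcript for 4 of these 5 genes and not for *Trib3*. The palindrome TGACGTCA, the letters bound by CREB and ATF dimers, was in no member window and in 1.79% of all promoters. The core of the antioxidant element, TGACNNNGC, was in the windows of *Asns* and *Phgdh* and in 12.4% of all promoters, and overlapped none of the matches above. A match is a description of letters and not evidence of binding.

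The deposited values are rlog values, a log2 scale on which low genes are drawn toward their mean, so differences of low genes are understated. The 16 libraries had medians of 8.33 to 8.38 across tested genes. The hepatocyte marker *Alb* read 19.61 to 21.59 in the 16 libraries. *Gclc* read 11.33 to 11.66 in L-DKO, 12.81 to 14.06 in Gclc L-KO, 12.59 to 13.00 in Nrf2 L-KO and 12.96 to 13.52 in WT livers. All libraries labelled L-DKO thus lay below WT in it, and those labelled Gclc L-KO were not low in it. *Nfe2l2* read 12.29 to 13.24 in L-DKO, 11.57 to 12.05 in Gclc L-KO, 11.89 to 12.54 in Nrf2 L-KO and 11.54 to 11.62 in WT livers. The libraries labelled L-DKO and Nrf2 L-KO all lay above WT in the gene their labels name as deleted, with differences of 1.20 (adjusted p = 0.0042) and 0.62 (adjusted p = 0.567) in limma. Values per gene cannot show the loss of single exons, so neither gene checks the deletion itself, and every direction below follows the labels. *Nqo1*, a target of Nrf2, read 8.18 to 8.98 in L-DKO, 11.82 to 12.79 in Gclc L-KO, 7.35 to 8.35 in Nrf2 L-KO and 8.05 to 9.16 in WT. *Xist*, transcribed from the inactive X chromosome of females, was low in replicates 3 and 4 (7.95 to 8.91) and high in replicates 1 and 2 (14.10 to 14.65), whatever the genotype, and the Y-linked *Ddx3y* read 10.35 to 10.80 in replicates 3 and 4 and 5.07 to 5.37 in replicates 1 and 2. Sex is not in the labels, so libraries are named here by replicate number. The separate mice behind the libraries are the replicates, and markers of other cell types are given beside the members they touch. In bulk tissue, fewer cells of a type and less RNA per cell cannot be told apart.

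*Gdf15*, a secreted hormone of the TGF-β superfamily that acts on a brainstem receptor to lower food intake, was the 1 member called against WT. It read 8.48, 8.19, 10.32 and 10.34 in L-DKO livers, 6.82, 7.95, 8.18 and 8.50 in Gclc L-KO livers, 8.52, 7.54, 7.71 and 8.98 in Nrf2 L-KO livers and 6.46, 7.00, 6.90 and 7.03 in WT livers, in the order of replicates 1 to 4. All L-DKO and all Nrf2 L-KO libraries lay above every WT library, and 3 of the 4 Gclc L-KO libraries did. The means were 9.33 ± 1.16 in L-DKO, 7.86 ± 0.73 in Gclc L-KO, 8.19 ± 0.68 in Nrf2 L-KO and 6.85 ± 0.26 in WT (SD, n = 4 each). *Gdf15* rose in L-DKO against WT by 2.48 on the log2 scale (SE 0.50, 95% interval 1.42 to 3.55, adjusted p = 0.0093, limma with Benjamini-Hochberg adjustment over all genes tested). It was the only 1 of the 10 members called in that comparison, in which 9.96% of all tested genes were called. The 1.34 between Nrf2 L-KO and WT (SE 0.50, adjusted p = 0.644) and the 1.02 between Gclc L-KO and WT (SE 0.50, adjusted p = 0.151) did not pass in limma. Set against Gclc L-KO, L-DKO was higher by 1.47 (interval 0.41 to 2.53, adjusted p = 0.0825, limma). Over the 8 fits that left out 1 library this difference was 1.12 to 1.85, and 1 of the 8 was called. That fit, without L-DKO replicate 2, gave the highest value (1.85, adjusted p = 0.0310, limma). With replicate number as a block the 1.47 was called (adjusted p = 0.0351, limma). The *Gdf15* call in L-DKO held in all 8 fits that left out 1 library of the comparison, with changes of 2.15 to 2.87, and was lost with replicates 1 and 2 only, where the change was 1.60 and the limma adjusted p 0.124.

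**Figure D1:**
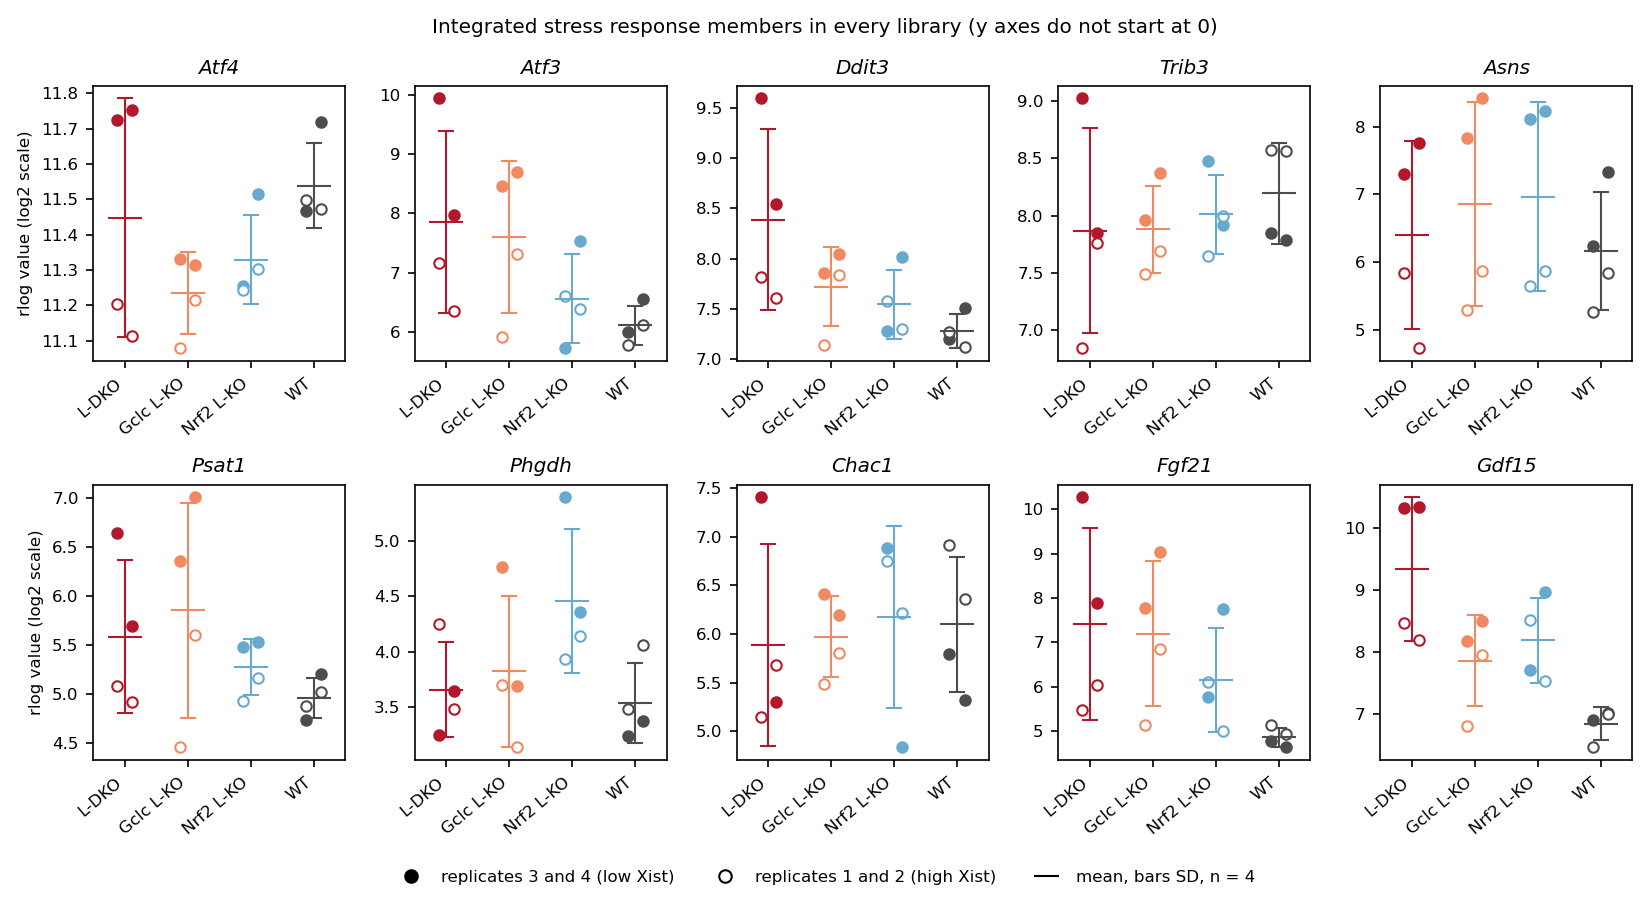
rlog values (log2 scale) of the 10 members in every library, by genotype, with the mean and SD of 4 libraries. Filled points are replicates 3 and 4 and open points replicates 1 and 2. The 4 L-DKO libraries of Gdf15 lie between 8.19 and 10.34, all above the 4 WT libraries, and most of the highest points of Atf3, Ddit3, Asns, Psat1 and Fgf21 are filled.

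*Fgf21*, a hepatic hormone of fasting and of amino acid and mitochondrial stress, read 5.48, 6.05, 10.26 and 7.89 in L-DKO livers, 5.14, 6.86, 7.78 and 9.03 in Gclc L-KO livers, 6.11, 4.99, 5.77 and 7.76 in Nrf2 L-KO livers and 5.13, 4.93, 4.77 and 4.63 in WT livers. Every L-DKO and every Gclc L-KO library exceeded every WT library, although the lowest Gclc L-KO value, 5.14, was next to the highest WT value, 5.13. The SD was 2.16 in L-DKO, 1.64 in Gclc L-KO, 1.17 in Nrf2 L-KO and 0.21 in WT (n = 4 each). The differences from WT of 2.55 in L-DKO (SE 0.94, adjusted p = 0.0932) and 2.33 in Gclc L-KO (SE 0.94, adjusted p = 0.0863) did not pass in limma. Without Gclc L-KO replicate 1 the Gclc L-KO change of *Fgf21* was 3.02 and was called (adjusted p = 0.0283, limma), while without L-DKO replicate 3 the L-DKO change was 1.61 (adjusted p = 0.286). Over the 8 fits that left out 1 library the Gclc L-KO change was 1.73 to 3.02, and 1 of the 8 was called. With the *Xist* level as a covariate both were called, at 2.51 in L-DKO (adjusted p = 0.0294) and 2.30 in Gclc L-KO (adjusted p = 0.0283, limma). L-DKO exceeded Gclc L-KO by 0.22, with an interval of -1.80 to 2.23.

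Among the transcription factors, *Ddit3*, which encodes CHOP, a bZIP protein of the late stress response tied to cell death, read 7.82, 7.60, 9.59 and 8.54 in L-DKO livers, 7.15, 7.84, 7.86 and 8.05 in Gclc L-KO livers, 7.58, 7.30, 7.28 and 8.02 in Nrf2 L-KO livers and 7.27, 7.12, 7.20 and 7.51 in WT livers. All L-DKO libraries lay above the WT range, with 7.60 the lowest L-DKO value and 7.51 the highest WT value. The difference of 1.11 (SE 0.34, interval 0.39 to 1.84) had a limma adjusted p of 0.0511 and was not called. It was called without L-DKO replicate 1 (1.30, adjusted p = 0.0399) and without L-DKO replicate 2 (1.38, adjusted p = 0.0141, limma), and it was 0.71 without L-DKO replicate 3 (adjusted p = 0.138). *Atf3*, an immediate stress-induced bZIP factor, read 7.15, 6.35, 9.93 and 7.97 in L-DKO livers, 5.91, 7.32, 8.46 and 8.70 in Gclc L-KO livers, 6.61, 6.38, 5.72 and 7.53 in Nrf2 L-KO livers and 5.78, 6.12, 5.99 and 6.55 in WT livers. In both L-DKO and Gclc L-KO, 3 of the 4 libraries exceeded every WT library and the lowest did not. The *Atf3* differences from WT were 1.74 in L-DKO (adjusted p = 0.114) and 1.48 in Gclc L-KO (adjusted p = 0.131), each with an SE of 0.69 in limma. The *Atf3* change in L-DKO was 2.24 without L-DKO replicate 2 (adjusted p = 0.0379) and 1.04 without L-DKO replicate 3 (adjusted p = 0.343), and without Gclc L-KO replicate 1 the Gclc L-KO change was 2.05 (adjusted p = 0.0336, limma). Over the 8 fits that left out 1 library the Gclc L-KO change of *Atf3* was 1.12 to 2.05, and 1 of the 8 was called.

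*Atf4* had the smallest SD of the 10 members in every genotype, 0.12 to 0.34. It read 11.20, 11.11, 11.72 and 11.75 in L-DKO livers, 11.08, 11.22, 11.33 and 11.32 in Gclc L-KO livers, 11.24, 11.30, 11.26 and 11.51 in Nrf2 L-KO livers and 11.50, 11.47, 11.47 and 11.72 in WT livers. All Gclc L-KO libraries lay below the WT libraries, while the L-DKO libraries fell on both sides of them, 2 below and 2 above. Against WT, *Atf4* in Gclc L-KO differed by -0.30 (SE 0.13, adjusted p = 0.108, limma). *Trib3*, a pseudokinase target of ATF4 and CHOP that dampens ATF4, read 6.84, 7.76, 9.02 and 7.85 in L-DKO livers, 7.49 to 8.38 in Gclc L-KO livers and 7.65 to 8.48 in Nrf2 L-KO livers, against 8.57, 8.57, 7.85 and 7.78 in WT livers, and the 3 differences from WT of the mutant genotypes lay between -0.33 and -0.18, none called. The L-DKO library with the highest *Trib3* was replicate 3, and the 2 highest WT libraries were replicates 1 and 2.

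The 3 enzymes of serine and asparagine synthesis among the members differed from each other in their course. *Asns*, asparagine synthetase, read 5.85, 4.73, 7.30 and 7.76 in L-DKO livers, 5.30, 5.88, 7.83 and 8.41 in Gclc L-KO livers, 5.65, 5.87, 8.12 and 8.24 in Nrf2 L-KO livers and 5.26, 5.84, 6.25 and 7.33 in WT livers. In each of the 4 genotypes both libraries of replicates 3 and 4 lay above both of replicates 1 and 2, and the genotypes overlapped. *Psat1*, which makes phosphoserine from the product of PHGDH, read 5.08, 4.92, 6.64 and 5.70 in L-DKO livers, 4.46, 5.60, 6.36 and 7.00 in Gclc L-KO livers, 4.93, 5.17, 5.49 and 5.53 in Nrf2 L-KO livers and 4.88, 5.02, 4.74 and 5.21 in WT livers. The *Psat1* difference was 0.62 in L-DKO and 0.89 in Gclc L-KO (SE 0.45 each, limma adjusted p 0.385 and 0.160), and its highest values were in replicates 3 and 4 of these genotypes. Without Gclc L-KO replicate 1 it was called in Gclc L-KO (1.36, adjusted p = 0.0161, limma), and without Gclc L-KO replicate 4 it was 0.51 there (adjusted p = 0.451). Without L-DKO replicate 3 the L-DKO difference of *Psat1* was 0.27. *Phgdh*, which opens serine synthesis, was near the filter in all libraries, at 3.14 to 5.39. *Chac1*, which degrades glutathione in the cytosol and is a target of ATF4, read 5.15, 5.68, 7.41 and 5.30 in L-DKO livers, 5.48, 5.80, 6.41 and 6.20 in Gclc L-KO livers, 6.75, 6.22, 6.89 and 4.83 in Nrf2 L-KO livers and 6.91, 6.36, 5.80 and 5.32 in WT livers. Its groups overlapped throughout, and its difference in L-DKO was -0.21 with an interval of -1.32 to 0.89.

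Over the members together, 0 of 10 passed in Gclc L-KO against WT, where 23.0% of all genes tested were called, and 3 of 10 had an unadjusted p under 0.05, beside 37.3% of all genes. In L-DKO against WT 1 of 10 passed, near the 9.96% of all genes, and 4 had an unadjusted p under 0.05, beside 28.6% of all genes. In Nrf2 L-KO against WT 0 of 10 passed, with 0.139% of all genes called, and 2 had an unadjusted p under 0.05, beside 6.91% of all genes. The median log2 fold change of the 10 members was 0.43 in L-DKO, beside 0.0019 over all tested genes, 0.57 in Gclc L-KO, beside 0.0030, and 0.38 in Nrf2 L-KO, beside -0.0047. Members whose 4 libraries did not overlap with WT numbered 3 in L-DKO (*Ddit3*, *Fgf21* and *Gdf15*, all above, with 17.6% of all genes on 1 side of WT), 2 in Gclc L-KO (*Fgf21* above and *Atf4* below, with 26.6% of all genes) and 1 in Nrf2 L-KO (*Gdf15* above, with 4.53% of all genes). The members' share without overlap was thus near the background in Gclc L-KO. With 10 members the counts were small in all 3 comparisons, and their departure from the background was not tested. The 3 comparisons share the WT libraries. Between L-DKO and Gclc L-KO 0 of 10 members were called, beside 8.64% of all genes. There 1 had an unadjusted p under 0.05, beside 23.7% of all genes. Between L-DKO and Nrf2 L-KO 0 of 10 were called, beside 5.26% of all genes, and 3 had an unadjusted p under 0.05, beside 24.6%. Over all libraries *Ddit3* differed by 0.84 between L-DKO and Nrf2 L-KO and was not called (adjusted p = 0.144, limma). When 1 library was left out this difference was 0.44 to 1.11, and 1 of 8 fits was called. That fit, without L-DKO replicate 2, gave the highest value (1.11, adjusted p = 0.0420, limma). The interaction was the change with loss of Gclc where Nrf2 was deleted minus the change where it was present. It called 0 of 10 members and 0.687% of all genes, and 2 members had an unadjusted p under 0.05, beside 14.8% of all genes. The lowest adjusted p among the members was 0.311 for *Atf4* (0.42, SE 0.19, limma).

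**Figure D2:**
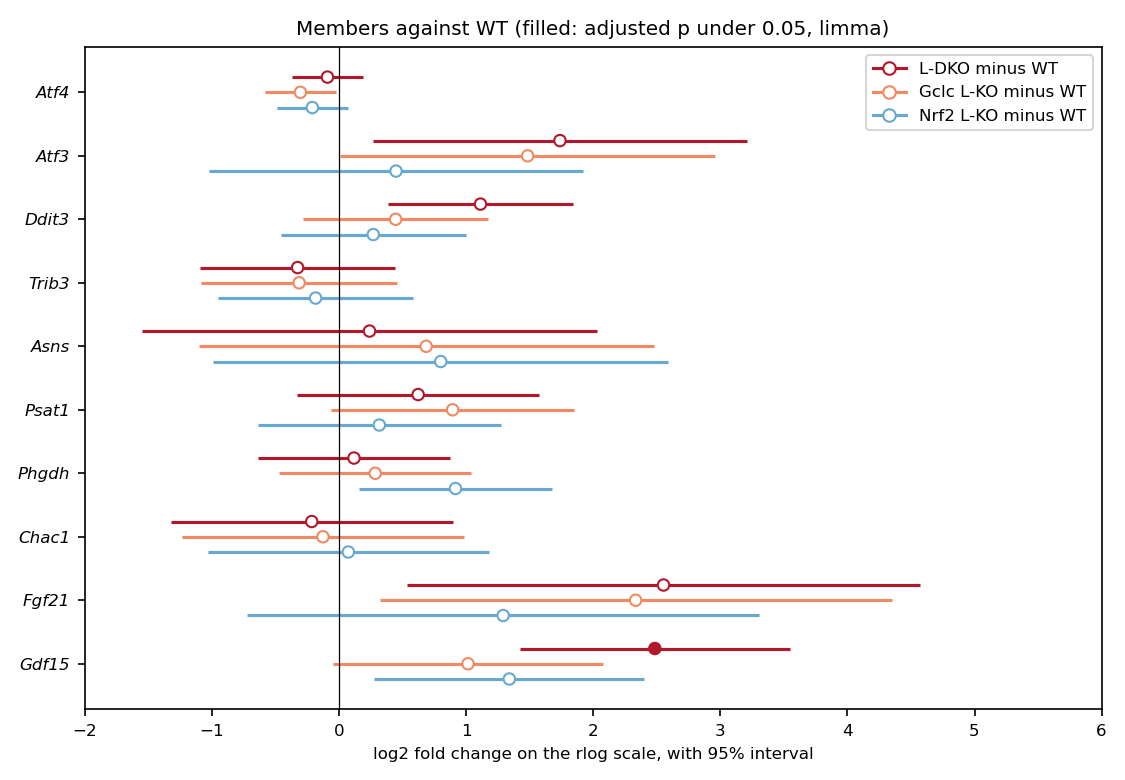
Log2 fold change against WT on the rlog scale for each member, with the 95% interval of the limma fit, for L-DKO, Gclc L-KO and Nrf2 L-KO. Only Gdf15 in L-DKO, at 2.48 with an interval of 1.42 to 3.55, is filled, which marks an adjusted p under 0.05.

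Replicates 3 and 4 (low *Xist*) were next set against replicates 1 and 2 (high *Xist*), a comparison added after the data were seen. As a mean over the 4 genotypes, 7 of 10 members were higher in replicates 3 and 4 and none was lower, while 21.4% of all genes tested were called. *Asns* differed most, by 2.11 (SE 0.21, adjusted p = 6.022e-05, limma), followed by *Fgf21* with 1.65 (SE 0.42, adjusted p = 0.0167), *Atf3* with 1.16 (SE 0.34, adjusted p = 0.0317), *Gdf15* with 0.88 (SE 0.22, adjusted p = 0.0164), *Psat1* with 0.83 (SE 0.19, adjusted p = 0.0101), *Ddit3* with 0.55 (SE 0.17, adjusted p = 0.0367) and *Atf4* with 0.24 (SE 0.05, adjusted p = 0.0055). The calls of *Atf3* and *Ddit3* were lost when single libraries were left out. Without L-DKO replicate 3, for example, *Atf3* differed by 0.91 with an adjusted p of 0.0639 and *Ddit3* by 0.42 with 0.0665 in limma, and between 5 and 8 members were called over the 16 such fits. *Trib3*, *Phgdh* and *Chac1* were not called.

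By genotype, the *Fgf21* difference was 3.32 in L-DKO, 2.41 in Gclc L-KO, 1.21 in Nrf2 L-KO and -0.33 in WT. For *Gdf15* it was 2.00 in L-DKO, 0.96 in Gclc L-KO, 0.31 in Nrf2 L-KO and 0.23 in WT, and for *Atf3* 2.20, 1.97, 0.13 and 0.32 in the same order. For *Asns* it was 2.24 in L-DKO, 2.54 in Gclc L-KO, 2.41 in Nrf2 L-KO and 1.24 in WT, so that the *Asns* difference was present in WT livers. For *Trib3* the WT difference ran the other way, at -0.76, against 1.13 in L-DKO. The tests of the difference itself took replicates 3 and 4 less replicates 1 and 2 in the change from WT. They called 0 of 10 members in L-DKO (4.34% of all genes called), 0 of 10 in Gclc L-KO (0.899%) and 0 of 10 in Nrf2 L-KO (0%). An unadjusted p under 0.05 was reached by 5, 4 and 1 members, beside 21.9%, 15.3% and 13.0% of all genes. The lowest adjusted p values of these limma tests were in L-DKO, at 0.0602 for *Trib3* (1.89, SE 0.51), 0.075 for *Atf4* (0.47, SE 0.14) and 0.102 for *Fgf21* (3.64, SE 1.18).

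**Figure D3:**
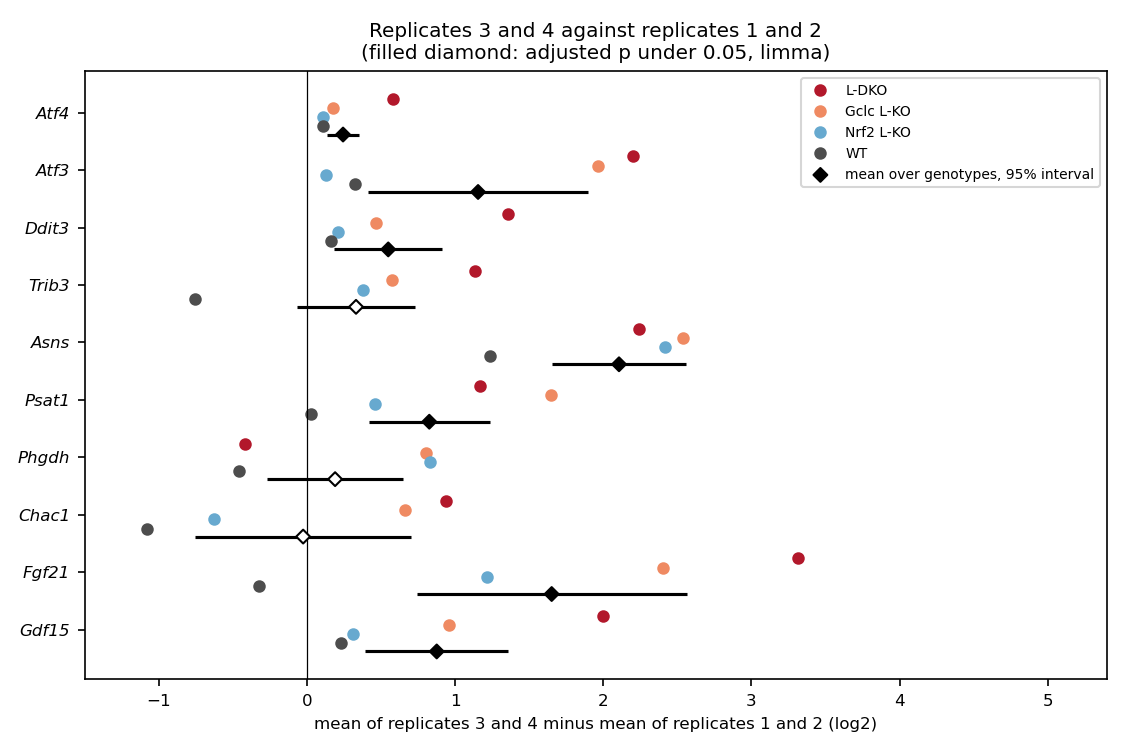
Mean of replicates 3 and 4 minus mean of replicates 1 and 2 (log2) for each member, as 1 point per genotype and as the mean over genotypes with its 95% interval (diamond, filled where the limma adjusted p is under 0.05). Asns lies right of 0 in all 4 genotypes, with 2.54 in Gclc L-KO the highest and 1.24 in WT the lowest, while the Fgf21 points lie between 3.32 in L-DKO and -0.33 in WT.

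Within replicates 3 and 4 alone, 5 of 10 members were higher in L-DKO than in WT (*Atf3*, *Ddit3*, *Psat1*, *Fgf21* and *Gdf15*). In Gclc L-KO 5 of 10 were higher (*Atf3*, *Asns*, *Psat1*, *Fgf21* and *Gdf15*). Of all genes, 22.2% in L-DKO and 27.6% in Gclc L-KO were called in either direction. *Fgf21* rose there by 4.37 in L-DKO (SE 0.85, adjusted p = 0.0102) and by 3.70 in Gclc L-KO (SE 0.85, adjusted p = 0.0156), and *Gdf15* by 3.37 in L-DKO (SE 0.34, adjusted p = 0.0010) and by 1.38 in Gclc L-KO (SE 0.34, adjusted p = 0.0210) in limma. Within replicates 1 and 2 alone, 0 of 10 were called in L-DKO (0.813% of all genes) and 0 of 10 in Gclc L-KO (5.61%). An unadjusted p under 0.05 was reached there by 4 members in L-DKO and 3 in Gclc L-KO. The share of all genes at that unadjusted p was not taken for these fits. *Fgf21* differed there by 0.73 in L-DKO and 0.97 in Gclc L-KO. *Trib3* differed by -1.27 in L-DKO (adjusted p = 0.0883) and -0.98 in Gclc L-KO (adjusted p = 0.0896, limma), and *Chac1* by -1.22 in L-DKO (adjusted p = 0.0972). Each of these fits rests on 2 libraries per genotype. With the *Xist* level as a covariate over all libraries, 4 of 10 members were higher in L-DKO (*Atf3*, *Ddit3*, *Fgf21* and *Gdf15*). In Gclc L-KO *Fgf21* was higher and *Atf4* lower. Of all genes, 18.5% in L-DKO and 30.3% in Gclc L-KO were called in either direction.

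The members differed in how closely they moved together within genotypes. Among the 7 members higher in replicates 3 and 4, Pearson r of the deviations from the genotype means over 16 libraries lay between 0.63 and 0.93 in all 21 pairs, with 0.93 for *Atf3* and *Ddit3*, 0.92 for *Ddit3* and *Fgf21* and 0.91 for *Atf3* and *Fgf21*. *Trib3* lay between 0.38 and 0.72 with these 7, highest with *Fgf21* (0.72), *Psat1* (0.68) and *Ddit3* (0.60), so it was not set apart from them. *Trib3* and *Chac1* followed each other with 0.74, and *Chac1* reached 0.40 with *Psat1* and 0.38 with *Fgf21*. *Phgdh* lay between -0.28 and 0.33 with the other 9. L-DKO replicate 3 held the highest value of 5 members, and L-DKO replicate 4 and Gclc L-KO replicate 4 of 2 each. The summed level of 6 adipocyte markers (log2) was also highest in L-DKO replicate 3 (8.41) and Gclc L-KO replicate 4 (8.97), with 6.12 to 7.40 in the other libraries. Of these markers *Plin1*, *Lep* and *Retn* had means under the filter (2.42, -1.20 and 1.76), and *Cidec* had the highest mean (6.08). The sum is thus of low genes, and its part in the members' values was not tested. *Atf3*, *Fgf21* and *Chac1*, whose promoters share the identical letters printed above, differed in how they moved together, with r of 0.91 for *Atf3* and *Fgf21* and 0.28 for *Atf3* and *Chac1*. These correlations share libraries and the replicate difference above and are given as descriptions.

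Of all tested genes, the 3 most like each member over the 16 libraries by Pearson r were taken. For *Ddit3* they were *Fam53c*, *Adamts1* and *Eif2ak3* (0.96 each), the last being the eIF2 kinase PERK. For *Psat1* they were *Pvr* (0.96), *Rras2* (0.95) and *Riok3* (0.93), and for *Fgf21* they were *Diaph3*, *Pvr* and *Tnfrsf12a* (0.94 each). *Atf3* was followed by *Nedd9*, *Ets2* and *Arhgap11a* (0.94, 0.94 and 0.93), and *Gdf15* by *Polk*, *Cd63* and *Fchsd1* (0.93, 0.93 and 0.92), of which *Polk* is a p53 target. *Asns* was followed by *BC021767*, *Prss8* and the Y-linked *Ddx3y* (0.91, 0.91 and 0.89). For *Atf4* (*Zmynd10*, *Ranbp3*, *Arpc5l*), *Trib3* (*Tmem68*, *Ube2g1*, *Ryk*) and *Chac1* (*Nceh1*, *Lurap1l*, *Ubxn7*) the best r were 0.85, 0.82 and 0.81.

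*Phgdh* was followed by *Aqp12*, *Gal* and *Nupr1* (0.96 each), and *Aqp12* is a water channel of pancreatic acinar cells. *Phgdh* read 4.25, 3.48, 3.25 and 3.65 in L-DKO livers, 3.70, 3.14, 4.76 and 3.69 in Gclc L-KO livers, 3.94, 4.14, 5.39 and 4.35 in Nrf2 L-KO livers and 3.48, 4.05, 3.24 and 3.38 in WT livers. Markers of pancreatic acinar cells also differed between libraries. Of 6 listed markers *Amy2a2* was at 0 in every library, and the log2 of the summed level of the other 5 ranged from 9.73 to 15.47 in L-DKO, 9.75 to 16.96 in Gclc L-KO, 14.36 to 17.17 in Nrf2 L-KO and 9.91 to 15.04 in WT. Over 16 libraries *Phgdh* followed their mean level with r of 0.86 (rho 0.91, and r of 0.88 without the 2 libraries farthest from the median), while the other 9 members had r between -0.39 and 0.29. Without the 2 libraries farthest from the median these 9 lay between -0.10 and 0.54, with 0.54 for *Asns*, 0.42 for *Gdf15* and 0.35 for *Psat1*. With that mean level as a covariate, an alternative added after the data were seen, the *Phgdh* difference between Nrf2 L-KO and WT was 0.29 in place of 0.92, and *Gdf15* in L-DKO against WT stayed at 2.45 (adjusted p = 0.0124, limma). Over all libraries *Phgdh* was called in no comparison, with or without this covariate. With replicates 3 and 4 only, it was lower in L-DKO than in Nrf2 L-KO (-1.42, adjusted p = 0.0499, limma).

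**Figure D4:**
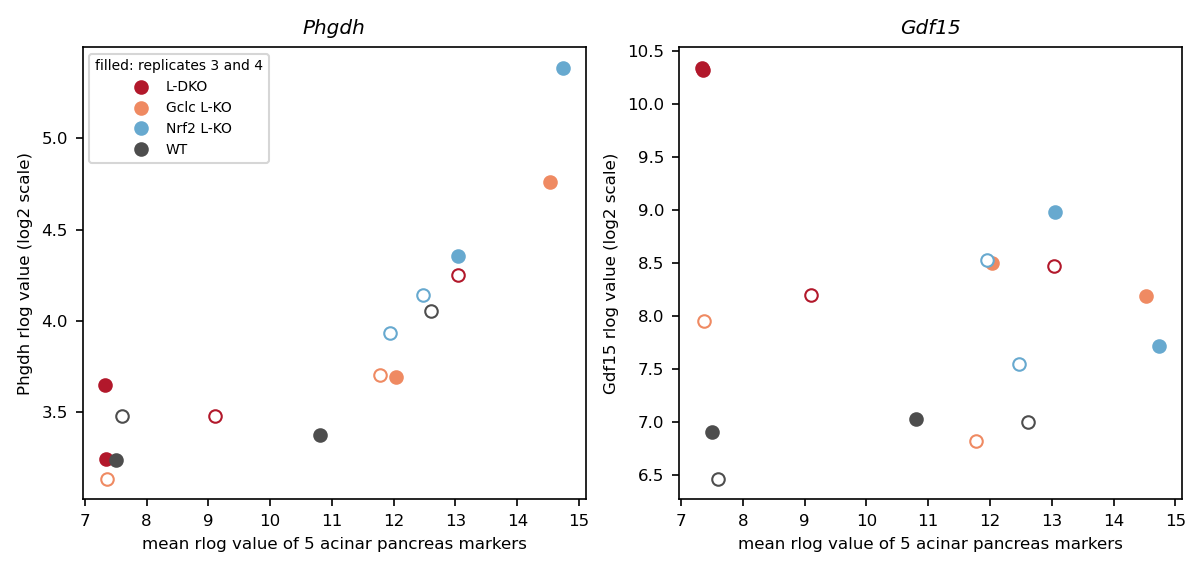
rlog value of Phgdh (left) and Gdf15 (right) against the mean rlog value of 5 acinar pancreas markers in the 16 libraries, coloured by genotype, filled for replicates 3 and 4. Phgdh rises with the markers up to 5.39 in the library with the highest marker level, and the 2 highest Gdf15 values lie at the low end of the marker axis.

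Markers of other liver cell types were read beside the members. The summed level of 6 Kupffer cell markers (log2) was 13.12 to 13.71 in L-DKO, 13.53 to 13.94 in Gclc L-KO, 12.89 to 14.03 in Nrf2 L-KO and 12.70 to 13.18 in WT. In Gclc L-KO 3 of 6 Kupffer markers were higher and 4 of 6 hepatocyte markers lower than in WT. In L-DKO 0 of 6 Kupffer markers were called and 2 of 6 hepatocyte markers were lower. The summed hepatocyte level (log2) was 21.00 to 21.77 in L-DKO, 19.98 to 21.10 in Gclc L-KO, 21.51 to 21.80 in Nrf2 L-KO and 21.41 to 21.75 in WT. Levels were summed on the linear scale, so this sum mostly follows *Alb*, with a mean of 21.01 beside 17.00 for *Ttr*, the next highest. All Gclc L-KO libraries lay below WT in this sum, and the lowest were replicates 3 and 4 (20.16 and 19.98). Within that genotype every member except *Phgdh* was highest in these libraries. In L-DKO, replicates 3 and 4 (21.00 and 21.11) also lay below every WT library, while replicates 1 and 2 (21.45 and 21.77) did not. Every member except *Phgdh* and *Chac1* read higher in L-DKO replicates 3 and 4 than in L-DKO replicates 1 and 2. The summed level of 6 lymphocyte markers was 9.52 to 10.11 in L-DKO, 9.66 to 9.99 in Gclc L-KO, 9.36 to 10.45 in Nrf2 L-KO and 9.41 to 9.49 in WT. All L-DKO and Gclc L-KO libraries thus lay above WT in it. Skeletal muscle markers summed highest in Nrf2 L-KO replicate 1 (13.95) and WT replicate 1 (12.81), with 6.96 to 10.37 in the other libraries. The part of these shifts in the members' values was not tested.

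The members' pathway was followed in 12 further lists with 155 entries, of which 150 were tested. Their counts stand beside 3.79% of all tested genes higher and 6.17% lower in L-DKO against WT, and 10.6% higher and 12.4% lower in Gclc L-KO against WT. Their counts at an unadjusted p under 0.05 stand beside 28.6% of all tested genes in L-DKO, 37.3% in Gclc L-KO and 6.91% in Nrf2 L-KO. Upstream of *Atf4*, among 15 genes of eIF2, its kinases and its exchange factor, *Eif2ak3* was higher in L-DKO than in WT by 0.96 (SE 0.26, adjusted p = 0.0326, limma), with 9.71, 9.57, 10.98 and 10.24 in L-DKO and 8.91, 9.12, 9.26 and 9.37 in WT. *Eif2b4*, a subunit of the exchange factor that phosphorylated eIF2 blocks, was also higher (0.37), and *Eif2ak1*, the haem-regulated kinase, was lower (-0.30, SE 0.07). The list's median was 0.03 in L-DKO. In Gclc L-KO only *Eif2s1*, the eIF2 subunit that the kinases phosphorylate, was called, 0.30 higher, and it was not called without Gclc L-KO replicate 3 or 4 or WT replicate 1. The L-DKO count of 3 in this list became 0 when L-DKO replicate 3 was left out and 1 when replicate 4 was. Of 10 partners and parallel factors, *Nfe2l2*, the gene that the L-DKO label names as deleted, was higher in L-DKO (1.20) and *Xbp1*, the factor of the IRE1 branch, was lower in Gclc L-KO (-0.44). The partners' count of 1 became 3 in L-DKO without L-DKO replicate 2 and 2 in Gclc L-KO without Gclc L-KO replicate 1.

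Of 9 tested amino acid transporters, 4 were higher and 2 lower in Gclc L-KO, with a list median of 0.57. *Slc7a11*, the cystine importer and a target of both ATF4 and Nrf2, read 3.23 to 3.67 in L-DKO and 3.20, 4.72, 8.64 and 10.35 in Gclc L-KO, against 3.40, 3.24, 3.18 and 2.95 in WT. *Slc1a4*, a carrier of serine and other neutral amino acids, read 8.34, 9.44, 11.21 and 11.57 in Gclc L-KO, against 7.95, 8.22, 8.64 and 8.81 in WT. Both were called in Gclc L-KO (3.54 and 1.73) and neither in L-DKO (0.24 and 0.13), and the interaction was not called for either. *Slc6a9*, a glycine carrier, was higher in Gclc L-KO (0.73) and lower in L-DKO (-1.23, adjusted p = 0.0076), and its interaction was called. In L-DKO, where *Gdf15* was higher, 1 of 9 transporters, *Slc1a5*, was higher as well. The Gclc L-KO count of 6 called transporters became 3, of which 1 was higher and 2 lower, without Gclc L-KO replicate 3 or 4 or WT replicate 1 or 2.

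Of 13 enzymes of amino acid and folate metabolism, 1 was higher (*Mthfd1l*, mitochondrial formate synthesis, 1.71, SE 0.25) and 3 lower (*Cbs*, of transsulfuration, -1.05, *Got1*, -0.59, and *Shmt2*) in Gclc L-KO, and 0 were higher and 2 lower (*Got1*, -0.66, and *Shmt2*) in L-DKO. Of 20 cytosolic tRNA synthetases, 3 were higher and 2 lower in Gclc L-KO, the largest being *Cars* at -0.57, and 0 were called in L-DKO, with 6 at an unadjusted p under 0.05. Of 15 stress effectors 1 was higher (*Sesn2*) and 4 lower (among them *Vegfa*, -0.80, and *Chac2*, the paralogue of *Chac1*, -0.62) in Gclc L-KO. *Tnfrsf10b*, the death receptor induced by CHOP, was higher by 1.73 in L-DKO, and *Vegfa* differed there by -0.42. Of 16 endoplasmic reticulum chaperones and folding factors, 1 was higher (*Dnajb9*, 0.66) and 4 lower (among them *Sdf2l1*, -0.82, and *Pdia6*, -0.61) in Gclc L-KO, with a list median of -0.31, and in L-DKO 0 were higher and 1 was lower (*Pdia6*, -0.44). Of 10 mitochondrial chaperones and proteases, 5 were higher in Gclc L-KO, *Afg3l2* by 0.71, *Hspd1* by 0.49 and *Hspe1* by 0.42 among them, and 1 in L-DKO (*Hspe1*, 0.27). Of these counts the mitochondrial 5 in Gclc L-KO stayed within 1.5 times when any 1 library was left out. In Gclc L-KO the enzymes fell to 2 without Gclc L-KO replicate 3 or WT replicate 1, the synthetases to 3 without Gclc L-KO replicate 4, and, without Gclc L-KO replicate 3 or 4 or WT replicate 1, the effectors to 2 and the folding factors to 1. Without another WT library the effectors (replicate 2, 3 or 4) numbered 3 and the folding factors (replicate 3 or 4) 2. In L-DKO, without replicate 3 or 4 of that genotype, none of these 5 lists held a call. In L-DKO the calls of the enzymes, effectors, folding factors and mitochondrial list also numbered 0 without WT replicate 1. Without WT replicate 2 they numbered 0, 0, 3 and 0, and without WT replicate 3 or 4 they numbered 1, 1, 0 and 0. Without L-DKO replicate 2, 4 effectors, 2 synthetases and 2 mitochondrial genes were called, without L-DKO replicate 1, 2 folding factors, and without WT replicate 2, 1 synthetase.

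Around the hormones, *Fgfr4*, the main hepatocyte receptor of the FGF15/19 family, was lower in both L-DKO (-0.60, SE 0.13) and Gclc L-KO (-0.44, SE 0.13), and *Fgfr3* was lower in Gclc L-KO (-0.61). Of 9 tested genes in this list none was higher in either comparison. Of 12 targets of PPARα, the fasting factor that also acts on *Fgf21*, 0 were called in L-DKO, with 3 at an unadjusted p under 0.05, and 2 were higher (*Ehhadh*, 0.81, and *Acadm*, 0.29) and 1 lower (*Acot1*, -0.92) in Gclc L-KO. Of 12 immediate early genes, *Egr1* (1.90, SE 0.43) and *Klf6* (1.08, SE 0.29) were higher in L-DKO and 0 were called in Gclc L-KO, with 5 at an unadjusted p under 0.05. Of 9 tested p53 targets, damage-induced genes of which *Gdf15* is also one, 3 were higher in L-DKO (*Eda2r*, 1.42, *Polk*, 0.63, and *Ccng1*, 0.57), with a list median of 0.61, and 0 in Gclc L-KO, with 2 at an unadjusted p under 0.05 and a median of 0.23. In replicates 3 and 4 against 1 and 2, 11 of 20 tRNA synthetases and 6 of 9 p53 targets were higher, and none and 1 of them lower, beside 1669 of 15128 tested genes higher and 1562 lower. The L-DKO counts of immediate early genes and p53 targets became 4 and 8 without L-DKO replicate 2, and 0 and 0 without L-DKO replicate 3 or 4. Without WT replicate 1 no p53 target was called, and without WT replicate 2, 3 or 4 the immediate early count was 1 and the p53 count 1, 0 and 0. In L-DKO the hormone list held 2 calls without L-DKO replicate 1 or 2, and the PPARα list 1. In Gclc L-KO the hormone list held 5 calls without Gclc L-KO replicate 1 and 0 without Gclc L-KO replicate 3 or 4 or WT replicate 1, the PPARα list 1 without Gclc L-KO replicate 3 or 4, and the immediate early list 2 without Gclc L-KO replicate 1. In Nrf2 L-KO none of the 150 genes was called against WT in limma, and 3 of 12 immediate early genes and 3 of 10 partners had an unadjusted p under 0.05.

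**Figure D5:**
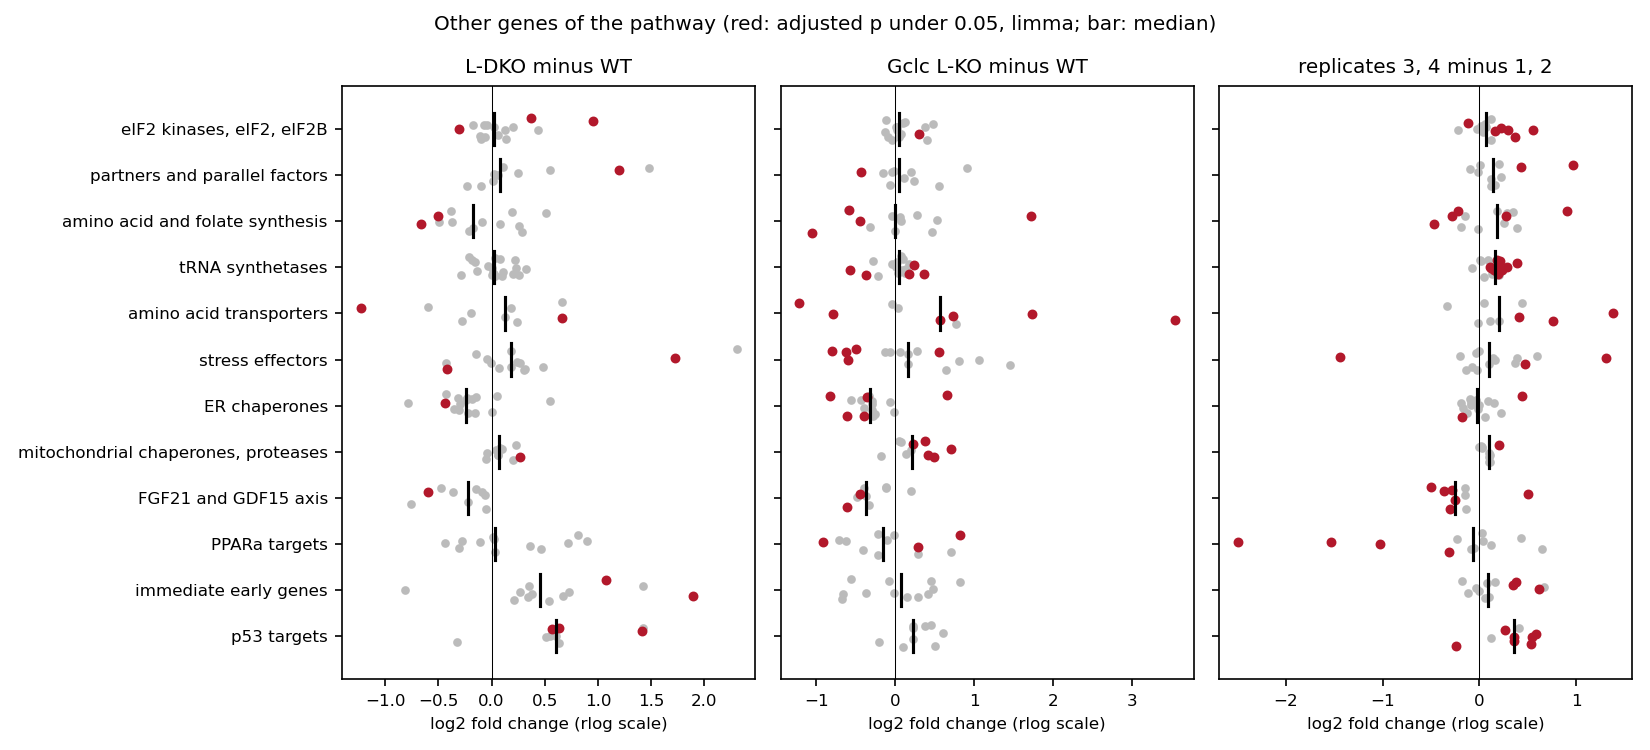
Log2 fold change on the rlog scale of the tested genes of the 12 pathway lists (1 point per gene, red where the limma adjusted p is under 0.05, bar at the list median) in L-DKO minus WT, Gclc L-KO minus WT, and replicates 3 and 4 minus 1 and 2. The amino acid transporters reach 3.54 in Gclc L-KO (Slc7a11), and the p53 targets have a median of 0.61 in L-DKO.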

How the data were processed

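Liver mRNA libraries of 16 mice were made with a stranded poly(A) kit. The submitters' notes list, without roles or order, the assembly GRCm39 and the tools DESeq2 1.34.0, R 3.5.1, Subread 2.0.1, featureCounts, STAR 2.7.9a, fastp and bcl2fastq 2.20.0. The authors deposited DESeq2 rlog values, a log2 scale from -2.27 to 21.59, so counts and depth are unknown and no count model could be run. Genes with a mean of at least 3 were tested (15128 of 56832, with 26656 at 0 throughout). limma 3.58.1 in R 4.3.3 fitted 1 mean per genotype to all 16 libraries (eBayes with trend), Benjamini-Hochberg adjusted over all tested genes, two-sided, with a threshold of 0.05. The replicate comparisons used 8 means, genotype by replicate class. The steps were tested on simulated data. Of 24 same-number pairs of libraries 20 correlated above 0.1. The exceptions (lowest -0.07) lay between L-DKO and Nrf2 L-KO, L-DKO and WT, and Gclc L-KO and WT, so the fit without a replicate block was kept and the blocked fit was an alternative, and between L-DKO and Gclc L-KO, where all 4 pairs did, its changed call is given beside the result.

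The members and lists were chosen with earlier results of these data known. Named were all members, up to 3 called genes of each list with the largest change in Gclc L-KO or L-DKO against WT, the 3 genes most like each member, and *Gclc*, *Nfe2l2*, *Nqo1*, *Alb*, *Xist* and *Ddx3y* as checks. Other list genes (*Eif2s1*, *Slc1a5*, *Shmt2* and *Sesn2*) were named after their values were seen. Alternatives changed the filter, trend, variance prior, normalization, library weights, replicate block, *Xist* covariate, fold threshold and libraries fitted. Promoter sequences come from RefSeq (GRCm38.p6).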

Additional observations from a re-analysis of the deposited data

Results flagged for a closer look

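Over the 40 sets of 4 libraries formed by the 10 members and 4 genotypes, 1 had a library far from its other 3. *Atf4* read 11.72 in WT replicate 4, with 11.50, 11.47 and 11.47 in the other WT libraries, a gap of 0.88 of the group's range and above Dixon's 95% critical value. Chance alone sets apart about 1 in 20 such sets. The *Atf4* difference between L-DKO and WT was -0.09 with all libraries and between -0.19 and 0.02 when 1 library was left out.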

How the results depend on the processing

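No member reversed a call. The number of members called in Gclc L-KO against WT, 0, became 2 with array weights, with a replicate block, with the *Xist* covariate and with only these groups fitted, 5 with replicates 3 and 4 only, and 0 to 3 with 1 library left out (3 without Gclc L-KO replicate 1). In L-DKO against WT, 1 became 2 with a minimum mean of 6 and with array weights, 3 with the replicate block, 4 with the *Xist* covariate, 5 with replicates 3 and 4 only, 0 with replicates 1 and 2 only, and 1 to 3 with 1 library left out (2 without L-DKO replicate 1, 3 without L-DKO replicate 2). In L-DKO against Gclc L-KO, 0 became 1 with the block and with the *Xist* covariate, 2 with replicates 3 and 4 only and 0 to 1 with 1 library left out. In L-DKO against Nrf2 L-KO, 0 became 3 with replicates 3 and 4 only and 0 to 1 with 1 library left out, in both cases 1 without L-DKO replicate 2. In the L-DKO replicate-class difference, 0 became 1 with quantile normalization, with array weights and without L-DKO replicate 4 (range 0 to 1). The other 188 counts stayed within 1.5 times, and the causes were not tested. With the block *Fgf21* was called in L-DKO (adjusted p = 0.0495) and Gclc L-KO (0.0463), *Ddit3* in L-DKO (0.0303) and *Atf4* in Gclc L-KO (0.0401, limma), and a library correlated best with its own number in 13 of 24 pairs. Depth is unknown, each group has 4 libraries, and fits on replicates 1 and 2 or 3 and 4 alone have 2 per genotype.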
